A study of Homo sapiens with 8 samples.

Results

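The 4 arrays with the replicate letters A and B were set against the 4 arrays with the letters C and D, with treatment held constant. All 8 arrays analysed here entered, since each of the letters A to D occurs once among the untreated arrays and once among the arrays of cells given TGFβ. The letters were read from the sample titles, and the split into A,B and C,D was chosen with earlier results of these data known. Each side held 2 untreated and 2 TGFβ arrays. The difference between the sides is therefore a difference between replicates, and the response to TGFβ that both sides share drops out of it. The labels call the letters biological replicates and do not say what a letter stands for.

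The cells were MDA-MB-231, a human cell line that was established from metastatic breast cancer, and every group carried a retroviral hairpin RNA against GFP, a sequence that the cells lack, as a control. The untreated groups A,B and C,D were deprived of serum for 24 h. The TGFβ groups A,B and C,D were deprived of serum for 24 h as well and received TGFβ for 3 h, at a labelled dose of 5 µg/ml. Doses of this cytokine are commonly stated in ng/ml, which leaves the labelled unit in doubt. The labels do not say whether the hairpin line was 1 clone. Cells depleted of p53, which the series also holds, are not part of the comparison and were not analysed here.

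Replicate cultures of one cell line can differ in density, in the share of dividing cells and in stress, and each of these states has known marker genes. Dividing cells make G1/S genes, which load and copy DNA, and then mitotic genes, which build the spindle and separate chromosomes. Crowding and attachment act on YAP and TEAD target genes, inflammatory signals act through NF-κB on cytokine genes, and oxidants act through NRF2 on detoxifying enzymes.

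The signals are log2 values after RMA, with 1 probe set standing for each of 19775 genes. Array medians ran from 4.62 to 4.66. VIM, the intermediate filament of mesenchymal cells, had signals of 13.55 to 13.81, and the 14 marker genes of this line had a mean signal of 10.45 to 10.83. The oestrogen receptor gene ESR1, low in this line, had signals of 5.66 to 5.91. Other luminal markers went both ways. PGR lay between 3.03 and 3.34 and CDH1 between 3.93 and 5.22, while GATA3 read 6.92 to 7.76, EPCAM 8.16 to 8.53 and KRT18 11.76 to 12.23. The 15 luminal markers had a mean signal of 7.87 to 8.07. The leukocyte gene PTPRC lay between 3.71 and 4.73 and the fibroblast gene DCN between 4.33 and 4.70. The TGFβ array A stood apart in RNA quality. Its 3′ signal exceeded its 5′ signal by 0.54 for GAPDH, against 0.06 to 0.14 on the other 7 arrays, and by 1.68 for ACTB, against 0.63 to 0.89. None of 7 array measures separated A,B from C,D, with exact two-sided permutation p-values from 0.2 to 0.943 over 70 splits and a smallest possible p of 0.0286.

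A and B did not form 1 state. After the treatment mean was taken out, the first principal component held 36.9% of the variance. It placed both B arrays, at 17.6 and 24.8, on one side and all C and D arrays, at -25.0 to -8.39, on the other. The A arrays lay on the side of B, the untreated one at 0.16 and the TGFβ one at 13.6. This component thus also separated A,B from C,D. The second held 34.4% and separated both A arrays, at 25.1 and 26.9, from the other 6, at -16.1 to -3.08. The median absolute difference between letters over all genes was 0.17 between A and B, 0.09 between C and D and 0.11 between A,B and C,D. C and D were thus nearer to each other than A was to B.

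**Figure D1:**
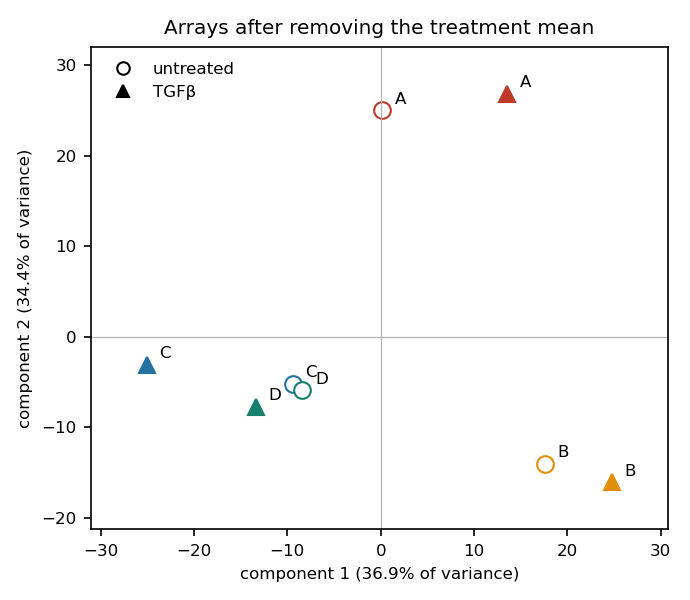
Position of each of the 8 arrays on the first principal component (horizontal axis, 36.9% of variance) and the second (vertical axis, 34.4%), computed from all genes after the mean of each treatment was subtracted. Open circles are untreated arrays, filled triangles are TGFβ arrays, and colours and letters give the replicate. The arrays of A lie at the top, those of B at the lower right, and those of C and D together on the left.

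Cells of letters A and B had more mRNA of AKAP12, RAB3B, OXTR and of many long genes, and less of VIPR1, RAB37, CYP1A1 and of some genes of cell division. With limma and Benjamini-Hochberg adjustment over all genes, 431 of 19775 genes (2.18%) differed between the sides at an adjusted p of 0.05. Of these 245 (1.24%) were higher in A,B and 186 (0.941%) were lower. The differences were moderate: 209 reached 1.5-fold, of which 151 were higher and 58 lower, and 13 reached 2-fold, of which 11 were higher and 2 lower. The 2 arrays of letter A shared their deviations, as did those of B. A fit with the letter as a random replicate block called 29 genes (0.147%), 16 higher and 13 lower, all of them among the 431. In all 431 both A,B arrays lay on one side of both C,D arrays under each treatment, as they did in 6.55% of all genes above and 9.59% below. In 384 the 4 A,B arrays lay wholly apart from the 4 C,D arrays, as in 3.86% of all genes above and 6.46% below, and passing the test selects for this. With the 2 arrays of each letter averaged, 2 letters against 2, limma called none, with 2309 genes at an unadjusted p under 0.05 and a smallest adjusted p of 0.23.

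AKAP12, which encodes a scaffold for protein kinase A, showed the largest difference among the 431 genes. Its signals were 9.03 and 8.98 on the untreated arrays A and B against 7.89 and 7.92 on C and D, and 11.25 and 11.09 on the TGFβ arrays A and B against 9.22 and 9.51 on C and D. Within each treatment both A,B arrays lay above both C,D arrays. The difference was 1.45 on the log2 scale (SE 0.14, limma adjusted p = 0.0114, and 0.0304 with the letter block), or 2.74-fold, and 4 of its 5 probe sets had this direction. AKAP12 was singled out after its values were seen, because the TGFβ arrays lie so far above the untreated ones that the sides overlap across treatments.

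Several of the genes with the largest differences act in membrane traffic and signalling. RAB3B, a small GTPase of secretory vesicles, read 6.41, 5.85, 5.13 and 5.12 on the untreated arrays A to D and 6.58, 5.65, 4.67 and 4.77 on the TGFβ arrays. It differed by 1.20 (SE 0.20, limma adjusted p = 0.0273, and 0.0534 with the letter block) and was highest in A under both treatments. The oxytocin receptor gene OXTR read 5.80, 5.53, 4.83 and 4.81 without TGFβ and 6.22, 6.37, 4.99 and 5.18 with it. Its difference of 1.03 (SE 0.11, limma adjusted p = 0.0114, and 0.0304 with the letter block) was present in both A and B. CLMP, a cell adhesion molecule, was higher by 0.97 and LYST, a regulator of lysosome size, by 0.96, and both also passed with the letter block.

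Some transcription factor and chromatin genes were among the genes higher in A,B. BACH1, a haem-regulated repressor of antioxidant genes, read 8.74, 9.05, 7.90 and 8.04 on the untreated arrays A to D and 8.56, 9.26, 7.71 and 7.92 on the TGFβ arrays. The 4 A,B arrays thus lay above every C,D array, by 1.01 on average (SE 0.15, limma adjusted p = 0.0217, and 0.0416 with the letter block), with 2 of 3 probe sets in this direction. The zinc finger gene ZNF83 was higher by 1.13 and ZNF25 by 0.96, and both passed with the block. ZEB1, the repressor of epithelial genes that marks mesenchymal lines, was higher by 0.88 (SE 0.13, limma adjusted p = 0.0241, and 0.0519 with the letter block). The histone demethylase gene KDM7A was higher by 0.95 (adjusted p = 0.0864 with the letter block).

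Scaffolds of cytoskeleton and Golgi were also among the genes higher in A,B. DST, which links filaments to each other and to junctions, read 9.70, 10.31, 9.23 and 9.42 without TGFβ and 9.92, 10.42, 8.59 and 9.03 with it. B was highest and the TGFβ array C lowest, and the sides differed by 1.02 (SE 0.19, limma adjusted p = 0.0364, and 0.0799 with the letter block). CCDC88A, an actin-binding regulator of migration, was higher by 1.09 and the golgin GOLGA4 by 0.98. AKAP9, a scaffold of centrosome and Golgi, was higher by 1.04, but its difference was -0.10 when probe sets that may read more than one transcript (names ending in _x_at or _s_at) were left out. The noncoding host transcript MIR100HG was higher by 0.98, in 1 of its 2 probe sets. None of these 4 passed with the letter block, where their adjusted p-values lay between 0.0602 and 0.0919.

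Among the 186 genes called lower in A,B, VIPR1, a receptor for vasoactive intestinal peptide, differed most. It read 6.67, 7.47, 8.33 and 8.28 on the untreated arrays A to D and 6.22, 6.91, 8.22 and 8.01 on the TGFβ arrays, lowest in A and intermediate in B. The difference was -1.39 (SE 0.19, limma adjusted p = 0.0204, and 0.0304 with the letter block). RAB37, a GTPase of secretory granules, was lower by a log2 difference of -1.08. CYP1A1, the enzyme induced by the aryl hydrocarbon receptor, read 5.33, 5.69, 6.40 and 6.54 without TGFβ and 5.33, 5.31, 6.34 and 6.20 with it. Its arrays split into 2 separate ranges, with a difference of -0.96 (SE 0.10, limma adjusted p = 0.0114).

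Other genes lower in A,B act in metabolism and secretion. SPINK1, a secreted trypsin inhibitor, differed by -0.84, the glucose transporter gene SLC2A6 by -0.75 and MOCS3, an enzyme of molybdenum cofactor synthesis, by -0.87, and all 3 passed with the letter block. MPDU1, needed for the sugar donors of glycosylation, differed by -0.91 without passing the block. HMGB3P1 is a processed pseudogene with a difference of -0.85, and its probe set could also read the parent transcript. The noncoding PSMB8-AS1 differed by -0.84, in 1 of its 2 probe sets.

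The 15 largest decreases without overlap included 5 genes of cell division. KIF20A, a kinesin of cytokinesis, read 9.11, 8.18, 9.44 and 9.38 on the untreated arrays A to D and 8.41, 7.94, 9.30 and 9.30 on the TGFβ arrays. B was lowest under both treatments, and the sides differed by -0.95 (SE 0.19, limma adjusted p = 0.0391, and 0.0829 with the letter block). The centromere gene OIP5 differed by -0.98, the kinetochore gene SPC24 by -0.91, PIMREG by -0.92 and the replication licensing gene CDC6 by -0.86. None of these 4 passed with the letter block, where their adjusted p-values lay between 0.0519 and 0.0864.

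**Figure D2:**
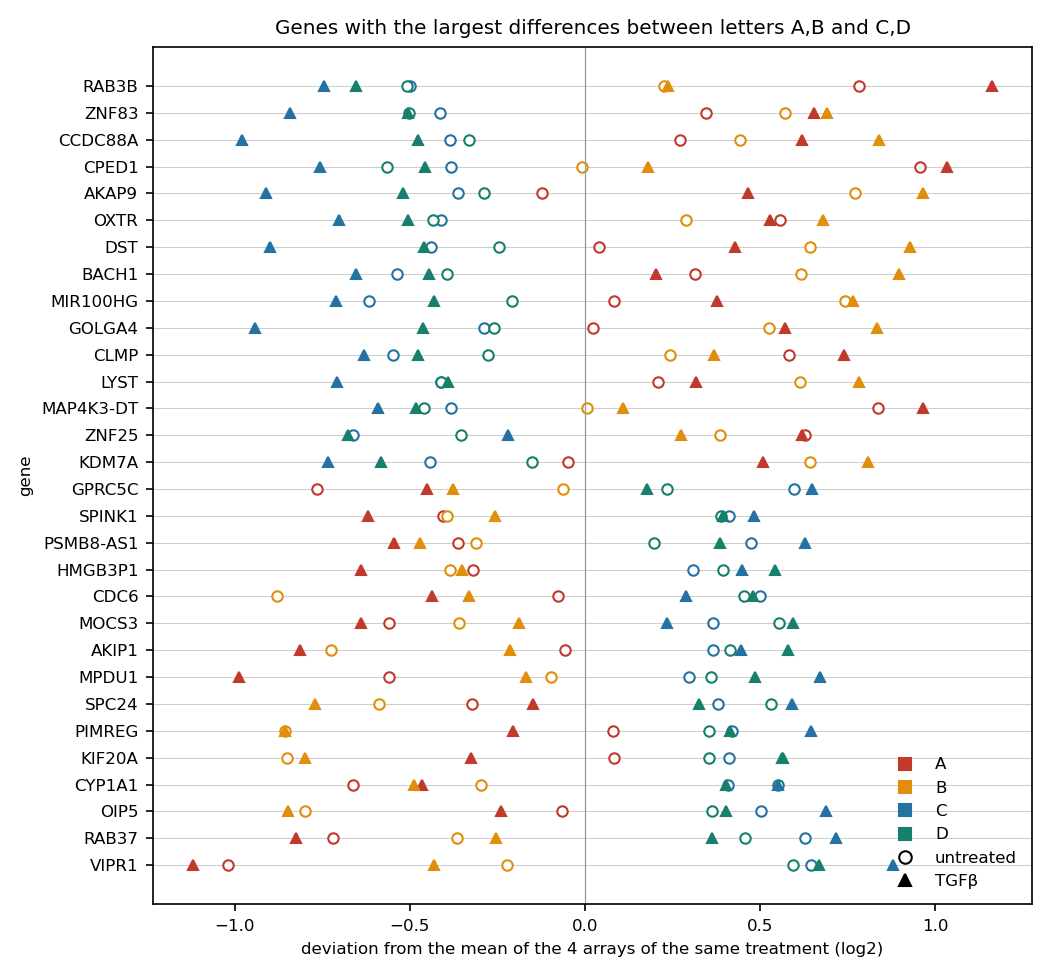
Log2 signal of 30 genes on each of the 8 arrays, as the deviation from the mean of the 4 arrays of the same treatment (horizontal axis). The genes are the 15 largest differences in each direction, at an adjusted p of 0.05, whose 4 arrays of A and B do not overlap the 4 of C and D; colours give the letter, open circles untreated arrays and filled triangles TGFβ arrays. RAB3B and VIPR1 are the outermost genes, and the A and B markers often lie apart from each other, as in OIP5 and PIMREG, where B is farthest.

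The genes higher in A,B were long and those lower were short. The genomic span, from the first to the last base of a gene in RefSeq (GRCh38.p14), had a median of 94.3 kb for the 244 genes higher in A,B that have a span in that table. It was 11.9 kb for the 186 lower genes and 24.7 kb for all genes. With genes split into 5 bins of nearly equal size by span, the share called higher in A,B was 0.152%, 0.355%, 0.659%, 1.55% and 3.47% from the shortest bin to the longest. The share called lower ran the other way, at 1.6%, 1.29%, 1.12%, 0.532% and 0.177%. This property was chosen after the values were seen and is given without a test. Under every alternative that was fitted on genes and called any in that direction the median span of the higher genes was 57.4 to 104.7 kb, and that of the lower genes 5.99 to 17.5 kb.

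The arrays differed in this respect one by one. On both B arrays the median deviation from the treatment mean rose from -0.04 and -0.09 in the shortest bin to 0.04 and 0.02 in the longest. On the TGFβ array C it fell from 0.07 to -0.05, and on the TGFβ array A, the array with the 3′ excess, it rose from -0.01 to 0.06. The untreated array A moved little, from 0.02 to 0.01. With the 3′ excess as a covariate, limma called 138 genes in place of 431, 69 in each direction, and the median spans were 98.5 kb and 10.6 kb. Mean deviations of the 4 arrays of a treatment sum to 0, so a rise on some arrays goes with a fall on others.

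**Figure D3:**
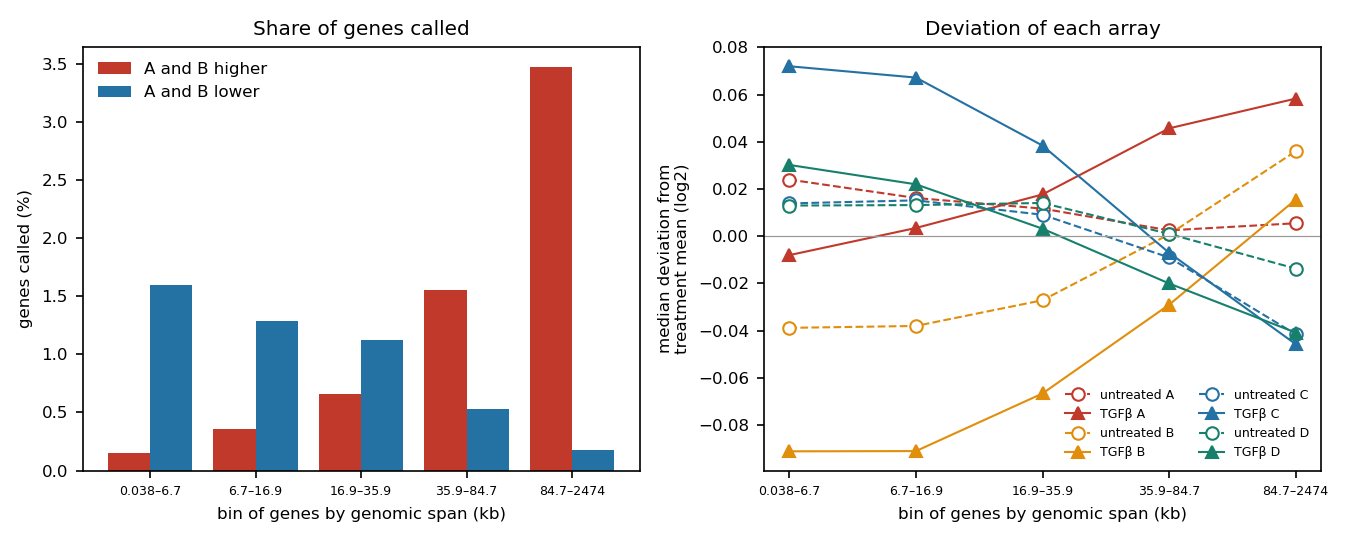
Left, share of genes called higher (red) or lower (blue) in A,B at an adjusted p of 0.05 (vertical axis, percent), in 5 bins of all genes by genomic span in kb (horizontal axis). Right, median deviation of each array from its treatment mean (log2) in the same bins, with 1 line per array, dashed for untreated and solid for TGFβ. The share called higher goes from 0.152% to 3.47% with span and the share called lower from 1.6% to 0.177%.

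A list of 25 long transcripts had been chosen with earlier results of these data known. Of its members 5 were called higher in A,B, beside 1.24% of all genes, and none lower. They were DST, AKAP9 and GOLGA4, described above, with KMT2C, a histone methyltransferase, at 0.64 and UTRN, a relative of dystrophin, at 0.50. The median difference of the list was 0.35, beside -0.02 for all genes, and 24 of 25 members had a positive difference. With probe sets named _x_at or _s_at left out the median was 0.19. No member passed with the letter block.

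Stress, inflammation and matrix lists had few calls in the comparison of the sides, where 1.24% of all genes were called higher and 0.941% lower. No member of any list passed with the letter block, where the adjusted p-values of limma for the members called without it lay between 0.0519 and 0.111. Of 24 immediate early genes, ATF3 (0.85, in 2 of 3 probe sets) and KLF6 (0.70), both stress-responsive transcription factors, were higher and none lower. Of 30 ATF4 and amino acid response genes, CTH (0.54), ASNS (0.49) and VLDLR (0.41) were higher and SLC3A2 (-0.38) was lower, although ASNS was at -0.10 with such probe sets left out. Of 30 NF-κB and cytokine genes the cytokine gene IL1A (1.05) was higher and none lower. Of 33 matrix protease genes ADAMTS6 (1.09), ADAMTS1 (0.65) and MMP10 (0.56) were higher and the protease inhibitor gene TIMP4 (-0.71) lower.

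Of 38 collagen and matrix genes, the laminin genes LAMA4 (0.67) and LAMB3 (0.53) were higher and none lower. LAMA4 was at -0.12 with such probe sets left out. Of 36 adhesion and actin genes, L1CAM (0.62) and the tight junction gene TJP1 (0.45) were higher. Of 23 YAP and TEAD targets RBMS3 (0.87) was higher, and 19 of 23 had a positive difference, with a median of 0.27. Of 25 NRF2 genes PGD (-0.51), an enzyme of the pentose phosphate pathway, was lower, and 20 of 25 had a negative difference, with a median of -0.21, or -0.13 with probe sets named _x_at or _s_at left out.

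In other lists 1 or 2 members passed the test, which is no result about these lists, since 1.24% of all genes were called higher and 0.941% lower. The cyclin gene CCND2 (0.79) was higher, in a list of 18 genes of CDK inhibitors and quiescence that also holds D-type cyclins. The zinc transporter gene SLC39A10 (0.52), of 11 metal response genes, and NAMPT (0.81), of 25 ribosome biogenesis and MYC target genes, were higher too. The growth factor gene HBEGF (0.55) was higher and the factor gene ETV4 (-0.68) lower among 19 MAP kinase feedback genes. The DNA damage histone gene H2AX (-0.82), of 10 histone genes, the death gene BAX (-0.54), of 19 p53-responsive genes, IFI35 (-0.66), of 30 interferon genes, and the respiratory chain gene NDUFS3 (-0.45), of 29, were lower. Of the 14 markers of this cell line ZEB1 was the one called.

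Lists of cell division had negative medians with few calls. Of 34 mitosis genes 1 was called lower, KIF20A, beside 0.941% of all genes, while 28 had a negative difference and the median was -0.41. Of 33 G1/S genes CDC6 and UHRF1 (-0.50) were lower, 32 had a negative difference and the median was -0.33. Heat shock proteins (19), unfolded protein response genes (21), hypoxia and glycolysis genes (29), cholesterol genes (25), FOXO targets (24), early SMAD targets (16), ribosomal proteins (25) and splicing genes (25) had no call in either direction. Of the marker lists of other cells, 2 of 9 keratinocyte genes were higher, KRT15 (0.51) and LAMB3, and no fibroblast (12), blood (9) or luminal (15) marker was called.

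The difference between the sides was present under both treatments and larger after TGFβ in most of the 431 genes. The 245 higher genes had a median difference of 0.48 among the untreated arrays and 0.80 among the TGFβ arrays, and the 186 lower genes -0.45 and -0.61. Of the 431, 372 had the larger difference after TGFβ. Passing the test of the sides selects for a difference under both treatments, and the like count over all genes is not given here. GOLGA4 differed by 0.55 untreated and 1.40 after TGFβ, and AKAP12 as given above. Limma called 101 genes (0.511%) within TGFβ and 0 (0%) within untreated, where 1228 had an unadjusted p under 0.05. The test of the difference itself, the interaction of side and treatment, called 0 genes (0%), with 795 at an unadjusted p under 0.05 and a smallest adjusted p of 0.984. The larger difference after TGFβ did not pass a test gene by gene.

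Since A and B lay apart, each letter was also set against C,D in the limma fit that leaves the other letter out, with 2 arrays against 4. For A 932 genes (4.71%) were higher and 765 (3.87%) lower than in C,D. For B 1491 (7.54%) were higher and 1517 (7.67%) lower. Both fits share the C and D arrays, and the difference between A and B was not tested, so their values are set side by side. The 2 arrays of a letter may come from 1 culture, and these p-values then measure the spread between arrays of few cultures.

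**Figure D4:**
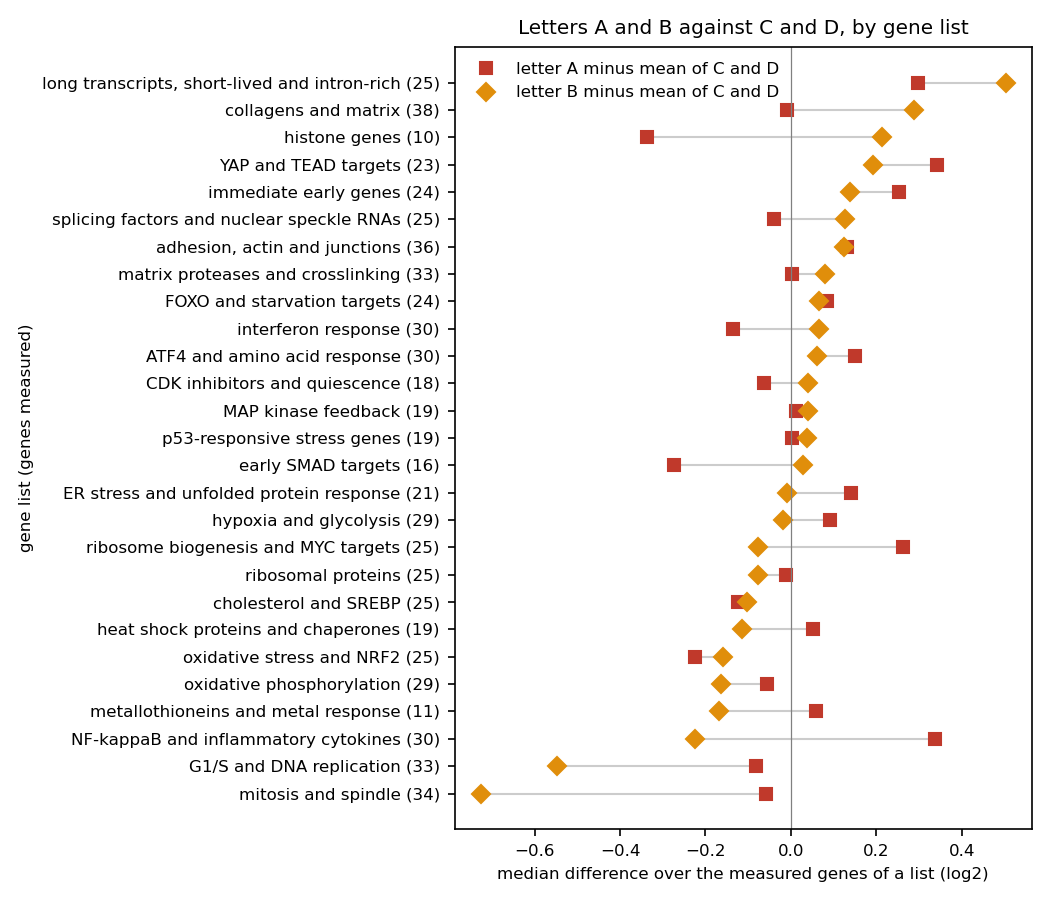
Median log2 difference from C and D over the measured members of each gene list (horizontal axis), for letter A (red squares) and letter B (orange diamonds), with the number of genes measured in parentheses. The mitosis list lies at -0.06 in A and -0.73 in B, the NF-κB and cytokine list at 0.34 in A and -0.23 in B, and the long transcripts at 0.30 and 0.50.

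Cells of letter B had lower levels of cell division transcripts. Of 34 mitosis genes 27 were lower in B than in C,D and none higher, beside 7.67% and 7.54% of all genes, with a median of -0.73. In A 1 was lower and 2 were higher, beside 3.87% and 4.71% of all genes, with a median of -0.06. The mean signal of the list was 8.54 and 8.41 on the B arrays, untreated first, against 9.24 to 9.31 on the other untreated arrays and 8.98 to 9.05 on the other TGFβ arrays. AURKB, the kinase of the chromosome passenger complex, was lower in B by -1.28, the anaphase activator CDC20 by -1.07, the mitotic kinase gene PLK1 by -1.12 and the cyclin gene CCNB2 by -1.14. The same 4 genes stood at -0.17, -0.05, -0.33 and -0.29 in A, without passing the test.

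CDCA8, a subunit of the same complex as AURKB, read 9.09, 8.12, 9.28 and 9.11 on the untreated arrays A to D and 8.49, 7.78, 9.30 and 9.07 on the TGFβ arrays. Its lowest value under each treatment was that of B, and B differed from C,D by -1.24 (SE 0.12, limma adjusted p = 5.85e-05). The 4 members with a positive value in B were CENPF, CENPE, ASPM and ECT2, which encode kinetochore, spindle and cytokinesis proteins. They stood at 0.19 to 0.37 in B and 0.40 to 0.57 in A, and none of the 4 passed in either letter.

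Of 33 G1/S genes 26 were lower in B and none higher, beside 7.67% and 7.54% of all genes, with a median of -0.55. In A, CDC6 (-0.69) was lower and none higher, beside 3.87% and 4.71% of all genes, with a median of -0.08. The origin gene ORC1 was lower in B by -1.06, the thymidylate synthase gene TYMS by -0.92, the licensing gene CDT1 by -0.71 and the helicase gene MCM2 by -0.72. TYMS read 11.27, 10.24, 11.04 and 11.12 on the untreated arrays A to D and 11.15, 10.04, 11.10 and 10.99 on the TGFβ arrays, with B lowest under each treatment. The stress cytokine gene GDF15 was also lower in B, by -1.62 from C,D, and stood at -0.46 in A.

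The promoters of these genes are shown because members of each list moved together in B. Mitotic genes are known to be controlled through the cell cycle homology region, here searched as TTTGAA on both strands, and G1/S genes through E2F sites, here searched as TTTCCCGC on both strands, or GCGGGAAA read along the other strand. In RefSeq windows of 300 bases, 250 before to 50 after the gene start (GRCh38.p14), TTTGAA was found in 21 of the 29 matched promoters of the mitosis list (72.4%) and in 15.4% of all 27305 promoters. The E2F letters were found in 9 of 29 promoters of the G1/S list (31.0%) and in 1.66% of all. In the promoters of all genes called lower in A,B the shares were 11.6% and 3.87% of 155, beside 11.9% and 2.18% of the 15360 promoters of genes measured. Printed are the 120 bases before the start of the members with the largest differences in B among those that hold the motif there, 11 of 27 mitosis and 6 of 26 G1/S genes, with the matched letters in capitals. No match printed overlaps a match of the other 8 motifs searched.
CDCA8, chr1:37692396-37692515, plus strand: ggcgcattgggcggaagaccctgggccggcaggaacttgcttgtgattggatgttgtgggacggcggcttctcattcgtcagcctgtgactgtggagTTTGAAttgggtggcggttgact
CCNB2, chr15:59105026-59105145, plus strand: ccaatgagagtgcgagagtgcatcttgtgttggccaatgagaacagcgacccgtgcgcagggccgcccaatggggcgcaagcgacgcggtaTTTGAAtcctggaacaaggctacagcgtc
PLK1, chr16:23678769-23678888, plus strand: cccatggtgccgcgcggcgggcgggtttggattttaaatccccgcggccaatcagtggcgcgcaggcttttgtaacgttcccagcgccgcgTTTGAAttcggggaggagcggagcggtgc
CDC20, chr1:43358861-43358980, plus strand: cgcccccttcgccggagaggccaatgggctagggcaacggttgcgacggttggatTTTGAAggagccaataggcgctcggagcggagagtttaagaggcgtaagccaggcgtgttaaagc
TYMS, chr18:657533-657652, plus strand: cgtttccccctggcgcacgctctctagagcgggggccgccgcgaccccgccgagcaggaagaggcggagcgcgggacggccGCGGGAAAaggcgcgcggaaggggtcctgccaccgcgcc
GINS2, chr16:85688955-85689074, minus strand: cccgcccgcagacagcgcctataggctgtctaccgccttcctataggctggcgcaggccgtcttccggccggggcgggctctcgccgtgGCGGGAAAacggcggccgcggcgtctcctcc
CDT1, chr16:88803669-88803788, plus strand: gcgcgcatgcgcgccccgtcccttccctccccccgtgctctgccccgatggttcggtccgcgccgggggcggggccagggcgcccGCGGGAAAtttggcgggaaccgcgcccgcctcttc
Counted from the gene start, with -1 the last base before it, the mitotic letters begin at -23 in CDCA8, at -29 in CCNB2 and PLK1 and at -65 in CDC20. The E2F letters begin at -39 in TYMS, -31 in GINS2 and -35 in CDT1. A match is a description of the sequence, and binding was not measured. For CCNB2 and GINS2, 2 of 3 probe sets had a lower signal in A,B.

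Some matrix and adhesion genes were higher in B, where 7.54% of all genes were called higher and 7.67% lower. Of 38 collagen and matrix genes 16 were higher in B and 2 lower, with a median of 0.29. In A 5 were higher and 7 lower, beside 4.71% and 3.87% of all genes, with a median of -0.01. COL6A3, a chain of collagen VI, read 4.62, 7.45, 5.70 and 5.97 on the untreated arrays A to D and 5.14, 7.61, 6.19 and 6.09 on the TGFβ arrays. B was the highest and A the lowest under both treatments, at 1.54 and -1.11 from C,D (limma adjusted p = 2.28e-05 and 0.000699), and the sides A,B and C,D differed by 0.22 without passing the test. COL6A1, another chain of collagen VI, stood at 0.79 in B and -0.77 in A, and COL7A1, which anchors basement membranes, at 0.43 and -0.97, all past the test. In B the fibronectin gene FN1 was higher by 0.68 and the basement membrane gene COL4A1 by 0.72. Of 36 adhesion genes 11 were higher and 2 lower in B, with the integrin genes ITGB4 (0.97) and ITGAV (0.83) among the higher ones, and 3 were higher and 2 lower in A.

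Most of the long transcripts were higher in B as well. Of 25, 15 were higher in B and none lower, beside 7.54% and 7.67% of all genes, with a median of 0.50. In A 4 were higher and none lower, beside 4.71% and 3.87% of all genes, with a median of 0.30. AKAP9 stood at 1.39 in B, the lipid transfer gene VPS13C at 1.30 and the nuclear envelope gene SYNE1 at 1.16. Their probe sets were not all higher in A,B: 2 of 3 were for AKAP9, 3 of 4 for VPS13C and 2 of 5 for SYNE1. Of 25 splicing and nuclear speckle genes 7 were higher in B and none lower, with a median of 0.13, among them the nuclear noncoding RNA MALAT1 (1.27), and in A 2 were lower and none higher. The microtubule kinase gene DCLK1 had the largest increase in B, of 2.14.

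Cells of letter A had more transcripts of several inflammatory cytokines. Of 30 NF-κB and cytokine genes 13 were higher in A than in C,D and none lower, beside 4.71% and 3.87% of all genes, with a median of 0.34. In B 1 was higher and 10 were lower, beside 7.54% and 7.67% of all genes, with a median of -0.23. The chemokine gene CCL20 read 7.23, 4.88, 5.64 and 5.31 on the untreated arrays A to D and 8.21, 4.63, 4.87 and 4.67 on the TGFβ arrays. A was highest under both treatments, by 2.60 (SE 0.29, limma adjusted p = 0.000774), and B stood at -0.37. CXCL8, which attracts neutrophils, was higher in A by 1.37, the cytokine genes IL6 by 1.29 and IL11 by 1.36, and the NF-κB inhibitor TNFAIP3 by 1.42. IL1A was higher in both letters, by 1.28 in A and 0.82 in B.

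On the untreated array A, whose GAPDH 3′ excess was 0.14, CXCL8 read 11.02 against 9.64 to 10.07 on the other untreated arrays, and IL6 read 8.32 against 7.13 to 7.41. With the 3′ excess as a covariate the median of the list over the sides was -0.09, against 0.06 without it. Blood cell markers had a mean signal of 4.87 on both A arrays, against 4.77 to 4.94 on the other 6, and their part in the result was not tested.

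Of the genes higher in A, CCL20 and FABP4 differed most. FABP4, a fatty acid binding protein, read 8.81 on the untreated array A against 6.17 to 6.45 on the others, and 8.43 on the TGFβ array A against 5.89 to 6.13. The difference of A from C,D was 2.50 and B stood at 0.17. The cytokine gene IL24 was higher in A by 2.12 and the phosphatase gene DUSP1, which limits MAP kinases, by 1.71. The shares over all genes were 4.71% higher and 3.87% lower in A, and 7.54% higher and 7.67% lower in B. Of 24 immediate early genes 9 were higher and 1 lower in A, and 6 were higher and none lower in B. Of 23 YAP and TEAD targets 8 were higher and none lower in A, among them the tissue factor gene F3 (0.78) and CCN1 (0.61), and 4 were higher and 2 lower in B. Of 25 ribosome biogenesis and MYC target genes 8 were higher and none lower in A, among them MYC (0.51), and 2 were higher and 6 lower in B.

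Some detoxifying enzymes were lower in A, where 3.87% of all genes were lower and 4.71% higher. Of 25 NRF2 genes 8 were lower and 1, SOD2 (0.92), was higher in A, with a median of -0.23. In B 4 were lower and 2 higher, beside 7.67% and 7.54% of all genes, with a median of -0.16. AKR1C1, an aldo-keto reductase of steroids and aldehydes, read 8.24, 9.99, 9.63 and 9.69 on the untreated arrays A to D and 8.18, 9.81, 9.82 and 9.60 on the TGFβ arrays. Both A arrays lay below the other 6, by -1.48 from C,D (SE 0.11, limma adjusted p = 0.000148), and B stood at 0.22. Probe sets of the AKR1C family can read each other's transcripts, and AKR1C2 (-1.40) and AKR1C3 (-1.37) were also lower in A. The quinone reductase gene NQO1 stood at -0.96 and the glutathione synthesis gene GCLM at -0.62 in A.

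The ubiquitin ligase gene TRIM16 had the largest decrease in A, of -2.65, and was also lower in B, by -1.46. It read 6.90, 6.22, 8.30 and 8.32 on the untreated arrays A to D and 4.43, 7.47, 8.23 and 8.39 on the TGFβ arrays. The lowest value, 4.43, was that of the TGFβ array A, the array with the 3′ excess, whose part in it was not tested. Without TGFβ, B was lower than A. All A,B arrays lay below all C,D arrays, but the spread within A,B was large and the sides differed by -2.06 without passing the test (limma adjusted p = 0.0637). Of 16 early SMAD targets 6 were lower and none higher in A, beside 3.87% and 4.71% of all genes. Among the 6 were PMEPA1 (-1.13) and SMAD6 (-0.78). In B 2 were higher and 4 lower, beside 7.54% and 7.67% of all genes, with ID3 at -0.62. For SMAD6, 2 of 4 probe sets had a lower signal in A,B.

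**Figure D5:**
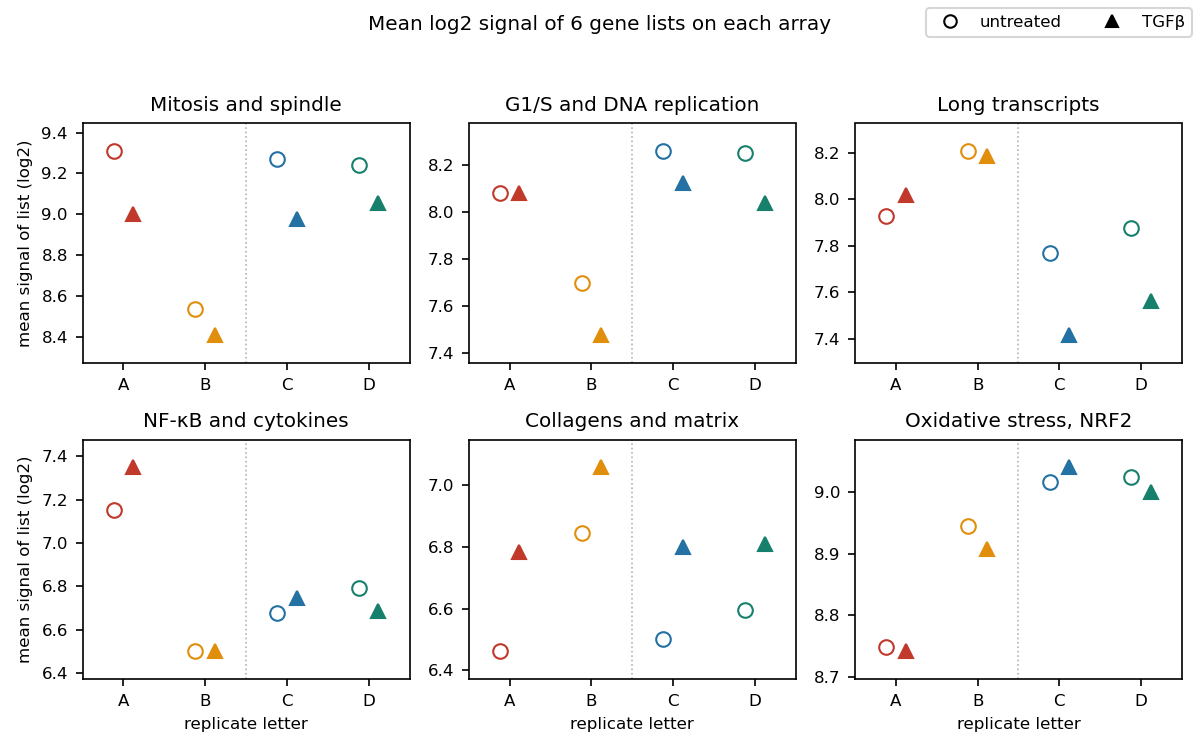
Mean log2 signal of 6 gene lists on each array (vertical axes, each with its own range), by replicate letter (horizontal axis), with open circles for untreated and filled triangles for TGFβ arrays and a dotted line between the sides. The B arrays are lowest for both cell division lists, the A arrays are highest for NF-κB and cytokine genes and lowest for NRF2 genes, and both A and B lie above C and D of the same treatment for long transcripts.

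The count of genes that differ between the sides depended on single arrays. Without the untreated array A it was 1252, 821 higher and 431 lower in A,B, and without the untreated array B it was 316. Without the TGFβ array A it was 70 and without the TGFβ array B 130. Without the untreated array C it was 10, of which CYP1A1 was the only gene lower, and without the untreated array D, the TGFβ array C or the TGFβ array D limma called none, with 3076, 2352 and 2708 genes at an unadjusted p under 0.05.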

How the data were processed

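Total RNA of 8 samples was hybridised to Affymetrix arrays. The deposited table holds log2 signals per probe set, which the authors made with RMA, per the submitters' processing notes. The sources used here give neither its version nor the log base; log2 was inferred from RMA and the range of values. Of 54675 probe sets 62 were controls. Of the other 54613, 41091 name 1 gene in the platform annotation of 2016, 1801 several and 11721 none. The probe set with the highest mean stood for each of 19775 genes.

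A linear model of side plus treatment was fitted with limma 3.58.1 under R 4.3.3 (lmFit, eBayes; A,B minus C,D, two-sided), with Benjamini-Hochberg adjustment and a threshold of 0.05. The fits were tested on simulated data. Precision is limited by the small number of arrays, whose spread may in part be technical. Same-letter arrays of the 2 treatments correlated in their deviations from the treatment means at 0.49, 0.69, 0.34 and 0.30 for A to D. Untreated C with TGFβ D stood at 0.33, and untreated D with TGFβ C at 0.31. The letters thus pair arrays in A and B, while C and D were not told apart in this way. The consensus correlation within a letter was 0.23. Named genes were the 15 largest differences per direction without overlap of the sides, and per list the 4 with the smallest p, or 2 where none was called; further genes were named after their values were seen. The 32 lists hold 770 symbols, 700 of them measured. The sides and lists were chosen with earlier results of these data known. Figures used matplotlib 3.10.9 in Python 3.11.15.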

Additional observations from a re-analysis of the deposited data

Results flagged for a closer look

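In 13 of 78 sets of 4 arrays of one treatment, 1 array lay far from the other 3, where chance flags about 1 set in 20. The sets are array measures and mean signals of gene lists.

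Of the array measures, the TGFβ array A had a 3′ minus 5′ signal of 0.54 for GAPDH against 0.07 to 0.10 on the other TGFβ arrays, of 1.68 for ACTB against 0.63 to 0.78, and of 2.36 for the poly-A spike controls against 1.35 to 1.5. The untreated array A had an interquartile range of 3.42 against 3.47 to 3.48 on the other untreated arrays. The untreated array C had a poly-A spike difference of 1.37 against 1.57 to 1.60.

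Array B was the outlying one for cell division and matrix. The mean signal of the mitosis list was 8.54 on the untreated array B against 9.24 to 9.31, and 8.41 on the TGFβ array B against 8.98 to 9.05. The mean of the G1/S list was 7.48 on the TGFβ array B against 8.04 to 8.12. The mean of the collagen and matrix list was 7.06 on the TGFβ array B against 6.78 to 6.81.

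The TGFβ array A was the outlying one for 4 lists. Its mean was 9.36 for ribosome biogenesis genes against 8.89 to 8.94, and 9.40 for unfolded protein response genes against 9.11 to 9.16. It was 7.62 for histone genes against 7.91 to 7.96 and 8.02 for CDK inhibitors against 8.07 to 8.08. This array also had the 3′ excess, whose part in these values was not tested. The untreated array A, with a GAPDH 3′ excess of 0.14, read 9.14 for ribosome biogenesis genes against 8.79 to 8.96 on the other untreated arrays. For histone genes it read 7.81 against 7.98 to 8.13. For unfolded protein response genes and CDK inhibitors it lay within the range of the other untreated arrays.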

How the results depend on the processing

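The counts of genes that differed (431), were higher (245) and were lower (186) in A,B stayed within 1.5 times of these values with only the upper 60% of signals, with arrays centred on their median, with quantile normalization again and with a trended and robust prior, at 409 to 520 in all. They were 29, 16 and 13 with the replicate block of letters, and 0, 0 and 0 with the mean of each letter's arrays. They were 192, 97 and 95 without treatment as a covariate, 174, 72 and 102 with probe sets averaged per gene, 205, 135 and 70 over all probe sets, and 138, 69 and 69 with the 3′ excess as a covariate. With cross-matching probe sets left out they were 310, 193 and 117. Leaving out 1 array or 1 letter gave 0 to 3008 in all, 0 to 1491 higher and 0 to 1517 lower; the fits without letter C or D called none, with 1705 and 2087 genes at an unadjusted p under 0.05. Such fits use fewer arrays; the cause of the other changes was not tested. The count within TGFβ was 199 in place of 101 with the upper 60% of signals. The interaction count was 0 to 1 with an array left out; the 1 gene, TCIM without the TGFβ array B, had a difference of 2.13 (limma adjusted p = 0.0325). The values of ASNS, LAMA4 and AKAP9 reversed to -0.10, -0.12 and -0.10 with cross-matching probe sets left out. Of 2818 values of named genes under alternatives 2046 kept their direction and side of the threshold, 659 lost the threshold and 105 passed it. Of 288 list medians 236 moved by less than the spread between arrays.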

Other observations

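Mitochondrial ribosomal protein genes, which encode the ribosome of the mitochondrion, had 7 members among the genes called lower in A,B. The family was picked after the values were seen. Of 75 measured members 7 were called lower and none higher, beside 0.941% and 1.24% of all genes, and 65 had a negative difference, as had 54.2% of all genes. The median difference was -0.20, at -0.05 in A and -0.33 in B, and their median span was 8.67 kb. Numbered zinc finger genes, a family known for primate duplications, had 7 of 425 measured members called higher and 3 lower, beside the same shares of all genes, with a median difference of 0.01.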
